A study of Mus musculus with 7 samples.

Results

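The cGAS-STING and cytosolic DNA sensing genes were followed in LSK cells of mice with 1 or both Ddx41 alleles. They were chosen by symbol and not by a cutoff on measured values, though earlier results of these data were known. They comprised 9 of the 24421 gene symbols counted. In the naming of the counts they are Mb21d1 (the gene of cGAS), Tmem173 (the gene of STING), Tbk1, Ikbke, Irf3, Trex1, Samhd1, Ifi204 and Enpp1. All 9 had enough counts to be tested.

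LSK cells are the Lin-Sca1+Kit+ fraction of bone marrow, which holds hematopoietic stem cells and multipotent progenitors. Their RNA was sequenced in 4 samples from recipients of wild-type marrow (Ddx41+/+, replicates 1 to 4) and 3 from recipients of heterozygous marrow (Ddx41+/-, replicates 6 to 8), and samples are named below by either form. Donors of both genotypes carried RosaCreERT2, a recombinase that is made in all tissues and activated by tamoxifen, with either a floxed and a wild-type Ddx41 allele or wild-type alleles alone, on a C57BL/6N background. Lots of 1000000 marrow mononuclear cells were given to lethally irradiated BoyJ recipients, and recipients of both genotypes received 1 mg tamoxifen in 50 ul corn oil in 2 rounds of 5 days, 2 days apart. The sort of LSK cells took place 8 weeks after transplantation, when surviving host cells can still be present, and the labels name no gate for donor cells. The ages of the mice are not given in the sources used here. A Ddx41+/- library numbered 5 was removed from the counts before deposit, for a reason that is not stated.

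DNA in the cytosol, from an infecting virus or from the cell's own damaged nucleus or mitochondria, is bound by the enzyme cGAS. cGAS then makes cGAMP, a small cyclic dinucleotide that binds STING on the endoplasmic reticulum. STING moves to the Golgi and recruits the kinase TBK1, or its relative IKK epsilon (encoded by Ikbke), which phosphorylates the transcription factor IRF3 and so turns on type I interferon genes. Ifi204 encodes a DNA-binding protein of the AIM2-like receptor family. The pathway is held down by TREX1, an exonuclease that degrades cytosolic DNA, by SAMHD1, which breaks down deoxynucleotides, and by ENPP1, which hydrolyses cGAMP outside cells. DDX41, a DEAD-box RNA helicase, has itself been described as a sensor of intracellular DNA that acts through STING.

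The sequence that limits the reading of Ifi204 is shown first. In the GENCODE M21 annotation (GRCm38, the build named mm10 in the submitters' processing notes), the coding parts of Ifi204 and of its neighbour in the same family, Ifi211, share a run of 223 identical bases, from coding base 201 to 423 in both. It lies in 2 exons of each gene on the minus strand, at chr1:173760169-173761663 in Ifi204 and at chr1:173906171-173907661 in Ifi211. Capitals mark the shared run, and the 15 bases on either side are in lower case.
Ifi204: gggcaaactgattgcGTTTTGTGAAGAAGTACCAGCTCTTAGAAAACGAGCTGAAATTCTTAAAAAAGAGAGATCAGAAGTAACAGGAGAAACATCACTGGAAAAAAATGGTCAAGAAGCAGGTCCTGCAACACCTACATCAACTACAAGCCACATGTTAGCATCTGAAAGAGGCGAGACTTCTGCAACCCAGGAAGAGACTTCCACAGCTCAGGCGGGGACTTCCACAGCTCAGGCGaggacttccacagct
Ifi211: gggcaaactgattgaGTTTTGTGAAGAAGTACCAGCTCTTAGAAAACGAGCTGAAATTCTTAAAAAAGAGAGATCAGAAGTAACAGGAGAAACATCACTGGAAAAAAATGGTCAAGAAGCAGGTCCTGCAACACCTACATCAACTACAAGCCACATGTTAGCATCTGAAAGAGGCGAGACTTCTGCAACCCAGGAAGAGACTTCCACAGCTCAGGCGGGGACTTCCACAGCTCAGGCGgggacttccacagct
A read of 75 bases, the length sequenced here, that falls inside this run does not by itself show which gene it came from. Of all 75-base stretches in annotated Ifi204 transcripts, 13.2% also occurred in transcripts of another gene, with 11.3% in Ifi211. This is a share of annotated sequence, not an error of the Ifi204 counts. The paper describes paired reads, and the mate of a read was not considered here. How far shared reads alter the values of Ifi204 was not tested.

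The depth was similar across samples, with 32234499 to 43751290 counts each. Levels are given as counts per 1000000 after TMM scaling of the library sizes (CPM), and differences as log2 fold changes of Ddx41+/- over Ddx41+/+ from edgeR's quasi-likelihood test, with Benjamini-Hochberg (BH) adjustment over the 13340 genes tested. The targeted gene followed the labels. Ddx41 was at 92.8, 98.7, 93.2 and 107 CPM across wild-type replicates 1 to 4 and at 68.1, 64.4 and 69.5 CPM across heterozygous replicates 6 to 8. The genotypes did not overlap, and Ddx41 was lower in Ddx41+/- cells by a log2 fold change of -0.54 ± 0.071 (SE, edgeR adjusted p = 0.0052). LSK identity was checked with 9 markers. Kit, the receptor that defines the sort, was at 466 ± 32.2 CPM (SD, n = 4) in wild-type and 468 ± 19.4 CPM (SD, n = 3) in heterozygous cells, and Ly6a (Sca1) at 20.9 ± 2.56 and 20.8 ± 8.81 CPM. Of the 9 LSK markers, 1 fell at an adjusted p under 0.05 (Gata2, log2 fold change -0.49, edgeR adjusted p = 0.0471). That level was reached by 0.217% of all genes tested. In all, 8 of the 9 had a negative log2 fold change, 6 of them with an unadjusted p under 0.05 (Cd34, Flt3, Mecom, Hlf, Procr and Gata2), and the median was -0.36. An unadjusted p under 0.05 was reached by 10.6% of all genes tested.

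None of the 9 DNA sensing genes passed the test, with adjusted p-values from 0.468 to 0.905, where 0.217% of all genes tested passed it. Mean levels were lower in Ddx41+/- cells for 6 genes and higher for 3. Their median log2 fold change was -0.06, and that of all genes tested was -0.0048. When 1 sample was left out, the median of the 9 genes was lowest at -0.095 (wild-type replicate 1 left out) and highest at -0.014 (heterozygous replicate 8 left out). The 95% intervals of the log2 fold changes ran from -0.71 at the lowest (Ifi204) to 0.51 at the highest (Enpp1). In 1 of 9 genes, Ikbke, the unadjusted p was under 0.05, a level that 10.6% of all genes tested reached. In 0 of 9 genes were the genotypes without overlap in CPM, where 10.1% of all genes tested showed none. The summed level of the 9 genes was 543 to 565 CPM in Ddx41+/+ and 535 to 555 CPM in Ddx41+/- samples, and these ranges overlapped.

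**Figure D1:**
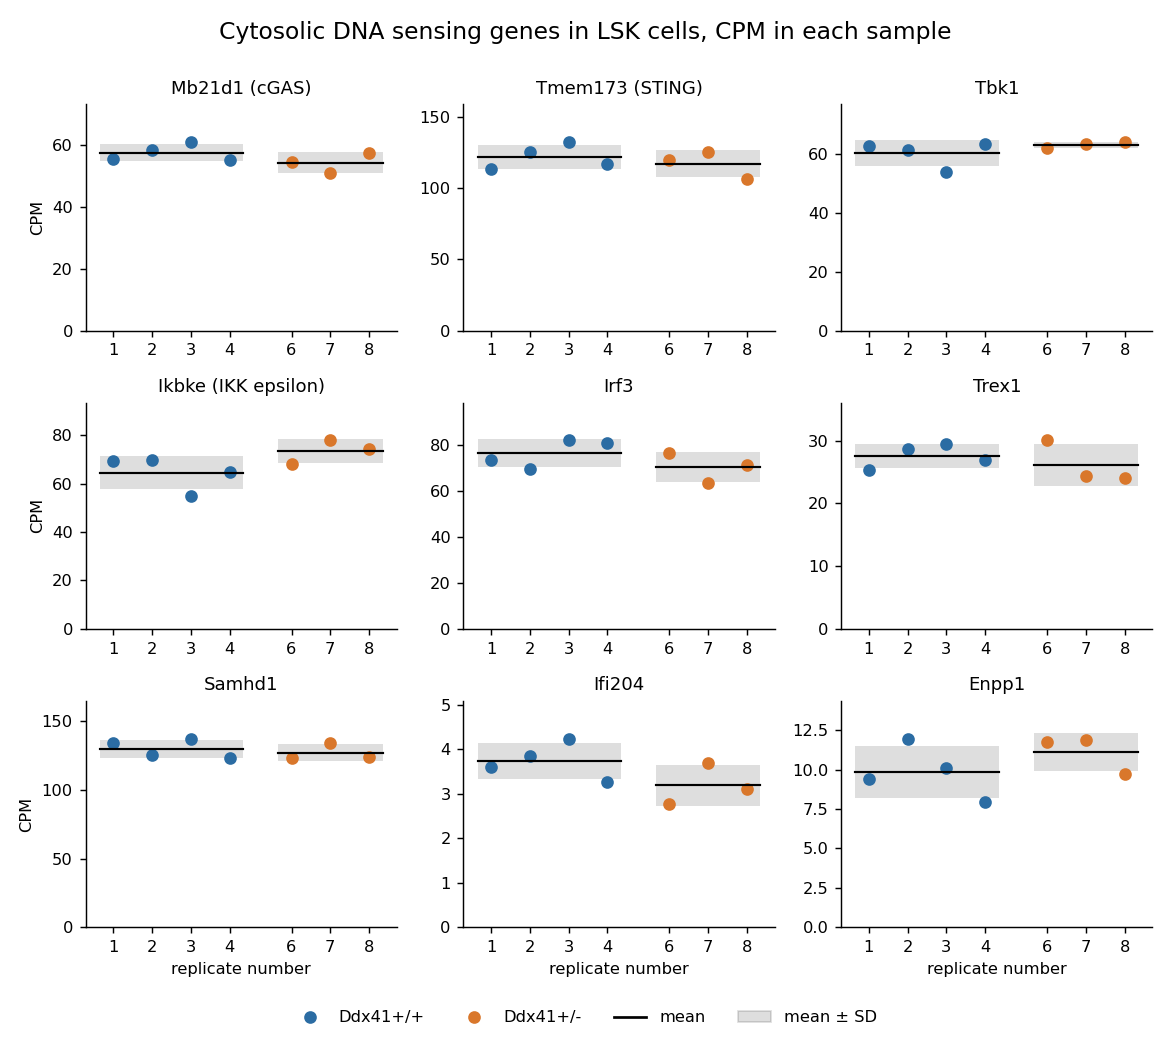
CPM of each of the 9 genes (vertical axes, from 0) in each sample (horizontal axes, replicate number), with Ddx41+/+ in blue, Ddx41+/- in orange, the mean as a line and mean ± SD as a grey band. The genotypes overlap in all 9 panels, and Ddx41+/+ replicate 3 is the highest sample in 5 panels and the lowest in 2.

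The sensor and its receptor came first in the pathway. Mb21d1, which encodes cGAS, lies on chromosome 9 (78430526 to 78443237, minus strand). It was at 55.5, 58.3, 60.9 and 55.1 CPM across wild-type replicates 1 to 4 and at 54.6, 50.8 and 57.5 CPM across heterozygous replicates 6 to 8. The lowest sample was Ddx41+/- replicate 7, and Ddx41+/- replicate 8 lay within the Ddx41+/+ range. The log2 fold change was -0.08 ± 0.075 (SE, edgeR adjusted p = 0.755, exact permutation p = 0.257, two-sided). Its 95% interval placed the level in Ddx41+/- cells between 84.7% and 106% of that in Ddx41+/+ cells. A processed pseudogene at the same place on the opposite strand, Gm8093, overlaps its exons by 201 bases. Counted on either strand, it shares 3.05% of the 75-base stretches of this gene.

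Tmem173, which encodes STING, lies on chromosome 18 (35733679 to 35740554, minus strand). It was at 114, 126, 133 and 117 CPM across wild-type replicates 1 to 4 and at 120, 125 and 107 CPM across heterozygous replicates 6 to 8. Ddx41+/- replicates 6 and 7 fell inside the Ddx41+/+ range, and replicate 8 was the lowest of all samples. Between genotypes it differed by a log2 fold change of -0.06 ± 0.074 (SE, edgeR adjusted p = 0.821), with a 95% interval from 85.9% to 107% of the Ddx41+/+ level. Without Ddx41+/- replicate 8 the log2 fold change was 0.0015, so the sign of this difference rested on that sample. No 75-base stretch of Tmem173 was shared with another gene.

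The kinases that phosphorylate IRF3 are Tbk1 on chromosome 10 (121546455 to 121586787, minus strand) and Ikbke on chromosome 1 (131254343 to 131279606, minus strand). Tbk1 was at 62.7, 61.6, 53.8 and 63.6 CPM across wild-type replicates 1 to 4 and at 62.2, 63.4 and 64.2 CPM across heterozygous replicates 6 to 8. All samples but Ddx41+/+ replicate 3 lay close together. For Tbk1, the log2 fold change was 0.06 ± 0.075 (SE, edgeR adjusted p = 0.812), with a 95% interval from 93.7% to 117% of the Ddx41+/+ level.

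Ikbke was at 69.3, 69.7, 54.7 and 64.7 CPM across wild-type replicates 1 to 4 and at 68.2, 77.8 and 74.3 CPM across heterozygous replicates 6 to 8. Ddx41+/- replicates 7 and 8 lay above every Ddx41+/+ sample, and replicate 6 lay within their range. The log2 fold change was 0.18 ± 0.087 (SE), with a 95% interval from 100% to 129% of the Ddx41+/+ level. The unadjusted p of edgeR was 0.0494, the adjusted p 0.468, and the exact permutation p 0.171 (two-sided). In 5 of 14 other fits the unadjusted p stayed under 0.05, and without Ddx41+/+ replicate 3, the lowest sample, the log2 fold change was 0.11. Ddx41+/+ replicate 3 also had the lowest level of long genes relative to short ones. In that sample the median deviation of the longest 20% of genes was 0.15 lower on the log2 scale than that of the shortest 20% (long minus short, -0.15), and this difference ran from -0.085 to 0.16 in the other samples. Ikbke has 9018 annotated exon bases, Samhd1 9150 and Enpp1 10257, all among the longest 20% (at least 7445 bases). In that sample Samhd1 was at its highest (137 CPM) and Enpp1 lay within the range of the other samples (10.1 CPM). Tbk1, with 3910 bases, was at its lowest there (53.8 CPM). The part of gene length in the Ikbke values was not tested.

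The balance of these kinases was compared within each sample, as Ikbke over Tbk1 in CPM per kb of annotated exon. The ratio was 0.479, 0.491, 0.441 and 0.441 across wild-type replicates 1 to 4 and 0.476, 0.532 and 0.502 across heterozygous replicates 6 to 8. Ddx41+/- replicate 6 fell between the Ddx41+/+ samples. The mean log2 ratio was -1.11 ± 0.081 (SD, n = 4) in wild-type and -0.99 ± 0.081 (SD, n = 3) in heterozygous cells, a difference of 0.12 that exceeded either SD but did not pass the test (exact permutation p = 0.143, two-sided, where 0.0286 is the smallest p that 4 against 3 samples allow). The ratio depends on the length used. Ikbke has long annotated exons, and per kb of its coding transcript the mean ratio was 0.992 in Ddx41+/+ and 1.08 in Ddx41+/- cells, with the same difference on the log2 scale.

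Irf3, the transcription factor at the end of the pathway, lies on chromosome 7 (44997648 to 45002848, plus strand). It was at 73.3, 69.5, 82.0 and 80.9 CPM across wild-type replicates 1 to 4 and at 76.5, 63.6 and 71.3 CPM across heterozygous replicates 6 to 8. Ddx41+/- replicate 7 was the lowest sample, and the other two lay within the Ddx41+/+ range. Its log2 fold change was -0.12 ± 0.082 (SE, edgeR adjusted p = 0.659), with a 95% interval from 81.8% to 104% of the Ddx41+/+ level. Its exons overlap those of Bcl2l12 on the opposite strand by 88 bases. Bcl2l12, a gene of the Bcl2 family, was at 36.4 ± 3.69 CPM (SD, n = 4) in wild-type and 33.1 ± 1.66 CPM (SD, n = 3) in heterozygous cells (edgeR adjusted p = 0.648).

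The genes that restrain the pathway also overlapped between genotypes. Samhd1, on chromosome 2 (157097533 to 157135265, minus strand), had the highest mean CPM of the 9 genes in both genotypes, at 130 ± 6.64 CPM (SD, n = 4) and 127 ± 6.30 CPM (SD, n = 3). By sample it was at 134, 126, 137 and 123 CPM across wild-type replicates 1 to 4 and at 123, 134 and 124 CPM across heterozygous replicates 6 to 8. Its log2 fold change was -0.03 ± 0.066 (SE, edgeR adjusted p = 0.905), and the 95% interval, from 88.8% to 108% of the Ddx41+/+ level, was the narrowest of the 9 genes.

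Trex1, on chromosome 9 (109057933 to 109059734, minus strand), was at 25.3, 28.6, 29.5 and 26.9 CPM across wild-type replicates 1 to 4 and at 30.1, 24.4 and 24.1 CPM across heterozygous replicates 6 to 8. Ddx41+/- replicate 6 was the highest of all samples and replicates 7 and 8 the lowest. For Trex1, edgeR gave a log2 fold change of -0.07 ± 0.10 (SE, edgeR adjusted p = 0.854), with a 95% interval from 81.5% to 111% of the Ddx41+/+ level. It was -0.19 without Ddx41+/- replicate 6 and -0.02 without replicate 8. Trex1 lies entirely within Atrip, the gene of a partner of the ATR checkpoint kinase, on the same strand. In GENCODE M21, 3 of the 9 Atrip transcripts run over Trex1 and 93.4% of its 75-base stretches are shared with Atrip, so the split of reads between these genes depends on the annotation used for counting. Atrip was at 38.7 ± 3.05 CPM (SD, n = 4) in wild-type and 33.7 ± 1.78 CPM (SD, n = 3) in heterozygous cells (edgeR adjusted p = 0.437). Trex1 took 41.6 ± 3.27% (SD, n = 4) of the counts of both genes in Ddx41+/+ and 43.6 ± 2.40% (SD, n = 3) in heterozygous cells (exact permutation p = 0.429, two-sided).

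Enpp1, on chromosome 10 (24637914 to 24712159, minus strand), was at 9.40, 12.0, 10.1 and 7.93 CPM across wild-type replicates 1 to 4 and at 11.7, 11.9 and 9.74 CPM across heterozygous replicates 6 to 8. All Ddx41+/- samples lay within the Ddx41+/+ range, which was the widest of the 9 genes relative to its mean, with a coefficient of variation of 17.0%. The log2 fold change was 0.17 ± 0.16 (SE, edgeR adjusted p = 0.754). It had 287 to 462 counts per library, and its 95% interval ran from 89.1% to 143% of the Ddx41+/+ level.

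Ifi204, on chromosome 1 (173747293 to 173766943, minus strand), had the lowest CPM of the 9 genes, with 109 to 149 counts per library. It was at 3.60, 3.86, 4.23 and 3.26 CPM across wild-type replicates 1 to 4 and at 2.77, 3.68 and 3.11 CPM across heterozygous replicates 6 to 8. Ddx41+/- replicates 6 and 8 were the lowest samples, and replicate 7 lay within the Ddx41+/+ range. The log2 fold change was -0.23 ± 0.23 (SE, edgeR adjusted p = 0.773), and the 95% interval ran from 61.0% to 119% of the Ddx41+/+ level. Ifi211, which shares the sequence printed above, is counted under its older symbol Mnda. It was looked at after its values were seen, and was at 2.05, 1.22, 1.55 and 1.99 CPM across wild-type replicates 1 to 4 and at 2.64, 3.62 and 2.23 CPM across heterozygous replicates 6 to 8, without overlap but also without passing the test (log2 fold change 0.73 ± 0.31, SE, edgeR adjusted p = 0.409). The sum of Ifi204 and Mnda was 5.44 ± 0.334 CPM (SD, n = 4) in wild-type and 6.01 ± 1.11 CPM (SD, n = 3) in heterozygous cells, with overlap. Ifi204 made up 62.1% to 76.0% of that sum in Ddx41+/+ and 50.4% to 58.2% in Ddx41+/- samples (exact two-sided permutation p = 0.0571). The part of reads that these genes share was not tested.

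**Figure D2:**
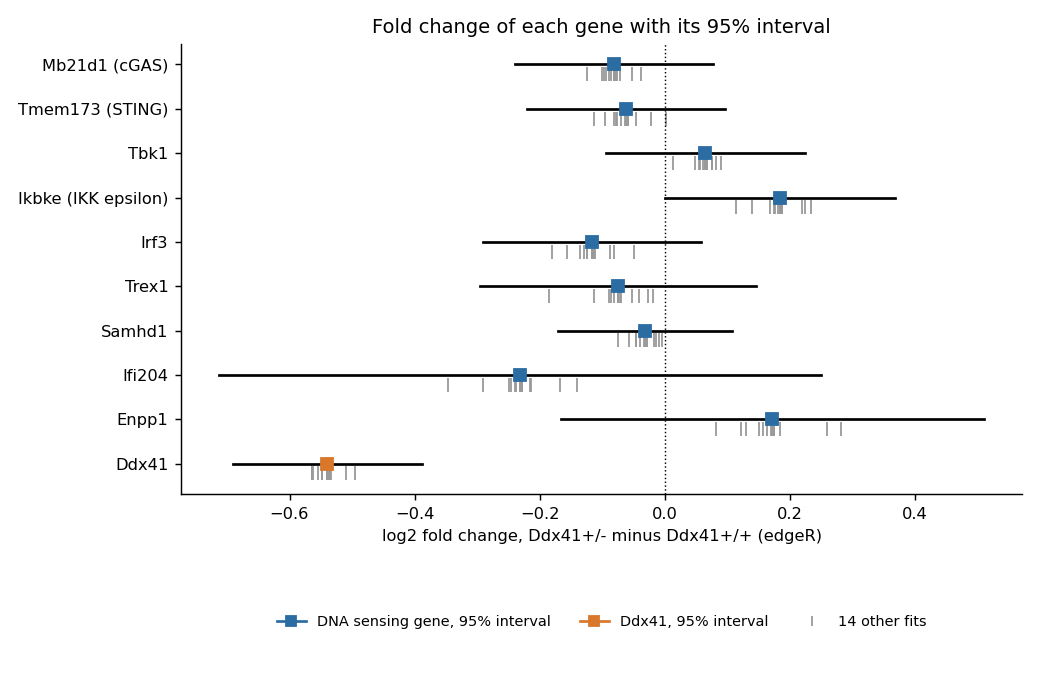
Log2 fold change of Ddx41+/- over Ddx41+/+ (horizontal axis) for the 9 genes (blue squares) and Ddx41 (orange square), with 95% intervals from edgeR as lines and the values of 14 other fits as grey ticks. The intervals of 8 genes include 0, that of Ikbke starts at 0.0006, and that of Ddx41 ends at -0.39.

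The genes were also set beside each other by level, as CPM per kb, since longer transcripts give more reads. Per kb of annotated exon, Tmem173 was highest, at 44.7 ± 3.08 CPM per kb (SD, n = 4) in Ddx41+/+ cells, and every sample of it lay above every sample of the gene next in order. Trex1 (24.0 ± 1.61 CPM per kb) and Irf3 (22.2 ± 1.75 CPM per kb) followed, and their samples overlapped. Tbk1, Samhd1 and Mb21d1 lay at 15.5, 14.2 and 13.9 CPM per kb, and neighbours in this order overlapped. Ikbke was at 7.16 CPM per kb, and Ifi204 and Enpp1 were lowest, at 1.05 and 0.960 CPM per kb, with overlap between them.

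The middle of this order depended on the length. Per kb of the transcript with the longest coding part, a basis added after the data were seen, Tmem173 again came first at 53.3 ± 3.67 CPM per kb (SD, n = 4). Samhd1 moved up to rank 3 at 33.1 CPM per kb, and Ikbke (19.9 CPM per kb) drew level with Tbk1 (20.0 CPM per kb), with overlapping samples. Ifi204 was last at 1.63 CPM per kb. The Enpp1 transcript used holds 2721 bases, of which 2718 are coding, so its 3.62 CPM per kb rests on a model with almost no UTR. Ddx41+/- cells kept the same order except for Ifi204 and Enpp1 on the first basis and Tbk1 and Ikbke on the second, which changed places.

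**Figure D3:**
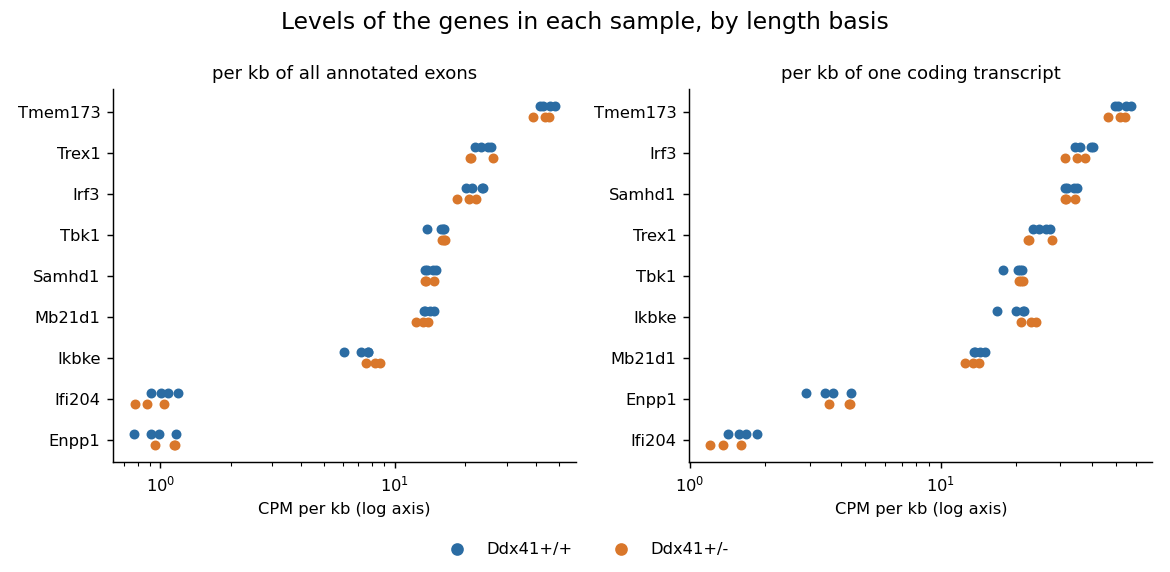
CPM per kb of the 9 genes in each sample (horizontal log axes; Ddx41+/+ blue, Ddx41+/- orange), divided by all annotated exon bases (left) or by 1 coding transcript (right), in order of the Ddx41+/+ mean. Tmem173 is first on both sides at 44.7 and 53.3 CPM per kb, and Ikbke moves from 7.16 to 19.9 CPM per kb with the length used.

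The genes whose pattern over the 7 samples was most like that of Mb21d1, among 10117 genes with a mean of at least 5 CPM, were Pwp1, 1190002N15Rik and Cmas. After centring each gene on its own mean, they differed from Mb21d1 by a root mean square of 0.027, 0.027 and 0.029 in log2 CPM, where Mb21d1 itself varied by 0.076. For Tmem173 they were Tmx2, Hmox2 and Atpif1, at 0.024, 0.025 and 0.026, against a variation of 0.096. With 10117 genes and only 7 values each, close matches can arise without any link between genes. No chance level was computed, so these names are a description only.

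The start regions of the genes were searched for the letters of interferon response motifs, in windows of 250 bases before to 50 after each start from RefSeq (GRCm38.p6). Windows were found for 7 of the 9 genes, 8 windows in all, and none for Ifi204 and Tmem173. The letters of an interferon-stimulated response element (GAAA, any 2 bases, GAAA) occurred on either strand in 0 of these 8 windows and in 3.44% of all 32851 windows. The letters TTCNNNGAA (a gamma-activated site) occurred in the window of Samhd1, at -235 from the start, and in 8.30% of all windows. A match of letters does not show that a factor binds there.

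Around the 9 genes, 79 further genes of the pathway were grouped into 6 lists by role. Of these, 73 could be tested, and 0 passed at an adjusted p under 0.05 in edgeR, with the smallest at 0.264. At an unadjusted p under 0.05 there were 8 (11.0%), with 6 higher and 2 lower in Ddx41+/- cells, and 10.6% of all genes tested reached that level. Their median log2 fold change was -0.02.

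Among 19 other DNA sensors and cofactors, 4 had an unadjusted p under 0.05, where 10.6% of all genes tested did. In all 4 the mean was higher in Ddx41+/- cells. The smallest p belonged to Pyhin1, the row of Ifi209, a further AIM2-like receptor, at 64.6 ± 8.30 CPM (SD, n = 4) and 80.2 ± 12.5 CPM (SD, n = 3; log2 fold change 0.31, edgeR adjusted p = 0.343). Hmgb1, a chromatin protein that binds bent DNA, came next at 206 ± 3.71 and 250 ± 50.6 CPM (log2 fold change 0.28, edgeR adjusted p = 0.355). Aim2, the sensor that forms inflammasomes on DNA, was at 45.8 ± 2.98 and 45.1 ± 2.31 CPM.

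Among 21 genes of STING traffic and turnover, 2 had an unadjusted p under 0.05, where 10.6% of all genes tested did. Both had a lower mean in Ddx41+/- cells. Zdhhc15, of the family of palmitoyltransferases that modify STING, was at 10.4 ± 1.66 CPM (SD, n = 4) and 7.76 ± 0.916 CPM (SD, n = 3; log2 fold change -0.42, edgeR adjusted p = 0.372).

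Among 9 kinase adaptors and IRF factors, Ddx3x was the only one with an unadjusted p under 0.05, where 10.6% of all genes tested did. This DEAD-box helicase, an adaptor of TBK1 and IKK epsilon, was at 547 ± 19.1 CPM (SD, n = 4) and 616 ± 43.3 CPM (SD, n = 3; log2 fold change 0.17, edgeR adjusted p = 0.33). The summed level of this list did not overlap between genotypes (884 to 909 CPM in Ddx41+/+ and 921 to 1008 CPM in Ddx41+/- samples). Of single genes tested, 10.1% did not overlap either. Without Ddx3x, its most abundant member, the sum was 337 to 360 and 339 to 359 CPM. Irf7, the interferon-inducible relative of IRF3, was at 20.3 ± 2.75 and 17.3 ± 4.66 CPM (edgeR adjusted p = 0.648).

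Among 8 tested nucleases, Pld4, an exonuclease of endolysosomes, had the smallest adjusted p of all 6 lists. It was at 38.0 ± 2.74 CPM (SD, n = 4) and 49.4 ± 10.4 CPM (SD, n = 3; log2 fold change 0.38, edgeR adjusted p = 0.264), with overlap between genotypes. Dnase2a, the DNase of lysosomes, was at 92.0 ± 3.19 and 86.0 ± 6.99 CPM (edgeR adjusted p = 0.673). Dnase1 had 0 counts in every library. Of 8 tested genes of cGAMP transport and hydrolysis, 0 had an unadjusted p under 0.05 in edgeR, against 10.6% of all genes tested. The volume-regulated channel subunits Lrrc8a (20.2 ± 2.21 and 18.0 ± 1.40 CPM, edgeR adjusted p = 0.648) and Lrrc8d (72.2 ± 1.75 and 76.6 ± 5.96 CPM, edgeR adjusted p = 0.721) came first by p.

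The output of the pathway was read from 10 transcripts that IRF3 can induce. The interferon genes Ifnb1 and Ifna4 had 0 counts in every library, which allows a level of up to 0.0676 to 0.0947 CPM by library (3 counts, counting error only). Of the 8 that could be tested, 0 had an unadjusted p under 0.05 in edgeR, against 10.6% of all genes tested. Log2 fold changes were negative in 5 and positive in 3 of these 8, with a median of -0.16. Cxcl10, a chemokine, was at 2.53 ± 1.58 CPM (SD, n = 4) and 1.53 ± 0.196 CPM (SD, n = 3; log2 fold change -0.71, edgeR adjusted p = 0.577). Ifit1, an inhibitor of viral RNA translation, was at 3.97 ± 0.738 and 2.80 ± 1.78 CPM (log2 fold change -0.49, edgeR adjusted p = 0.717), and its 95% interval of the log2 fold change ran from -1.37 to 0.39. Ddx41+/- replicate 7 was the lowest sample for Ifit1, with 29 counts, against 172 and 141 in replicates 6 and 8. For Cxcl10 the Ddx41+/+ samples ran from 1.19 to 4.77 CPM, a range that held every Ddx41+/- sample.

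**Figure D4:**
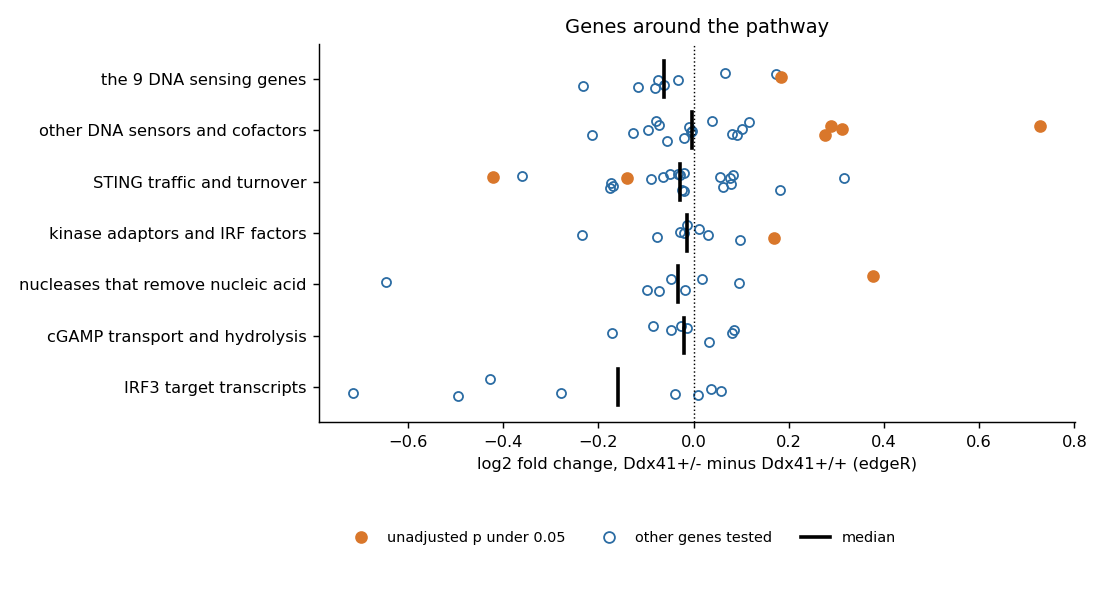
Log2 fold change of Ddx41+/- over Ddx41+/+ (horizontal axis) for each gene tested, in the 9 DNA sensing genes and the 6 lists around them (rows), with genes at an unadjusted p under 0.05 in orange, other genes as open blue circles and medians as black bars. The medians lie between -0.16 and -0.0026, and the orange points are 1 of the 9 genes and 8 of the 73 genes of the lists.

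Markers of other cells moved with genotype and are given beside these values. The summed level of 9 neutrophil markers was 736 to 1247 CPM in Ddx41+/+ and 1322 to 2262 CPM in Ddx41+/- samples, without overlap. Of these markers, 8 had an unadjusted p under 0.05 and a higher mean in Ddx41+/- cells, and 0 had an adjusted p under 0.05 in edgeR. The remaining 1 had a log2 fold change of -0.24. Among all genes tested, 10.6% had an unadjusted and 0.217% an adjusted p under 0.05. The 9 LSK markers summed to 1721 to 1906 and 1561 to 1708 CPM, also without overlap. The sums of 10 monocyte and macrophage, 7 plasmacytoid dendritic cell, 7 B-lineage, 6 T and NK cell and 7 late erythroid markers overlapped between genotypes. All 10 monocyte and macrophage and all 7 B-lineage markers had a positive log2 fold change (medians 0.17 and 0.63). Of them, 1 and 3 had an unadjusted and 0 an adjusted p under 0.05 in edgeR. Of 6 tested plasmacytoid dendritic cell markers, 4 were negative. Only 2 T and NK and 3 late erythroid markers were tested. Hba-a1, Hba-a2, Hbb-bs and Hbb-bt had 0 counts in every library. How shared reads were counted is not given, so this alone does not show absence of the RNA. In bulk samples, fewer cells of a type and less RNA per cell cannot be told apart. The part of these markers in the levels of the DNA sensing genes was not tested. Ddx41+/- replicate 6 had the highest neutrophil marker sum. Without it, 0 of 9 genes had an adjusted p under 0.05 in edgeR and 1, Ikbke, an unadjusted p under 0.05. Ddx41+/- replicates 7 and 8, at 1572 and 1322 CPM, still lay above every Ddx41+/+ sample in that sum. Leaving out replicate 6 therefore does not separate these markers from genotype. In that setting Tbk1, Ikbke and Trex1 (3 of 9) no longer overlapped between genotypes, as was the case for 23.0% of all genes tested with 4 against 2 samples.

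**Figure D5:**
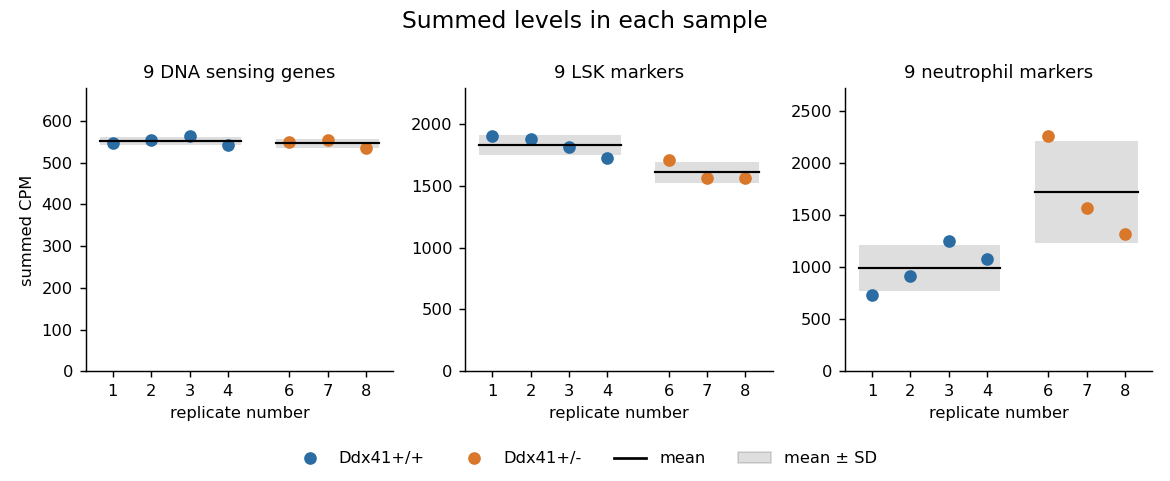
Summed CPM (vertical axes, from 0) of the 9 DNA sensing genes, 9 LSK markers and 9 neutrophil markers in each sample (horizontal axes, replicate number), with Ddx41+/+ in blue, Ddx41+/- in orange, the mean as a line and mean ± SD as a grey band. The sum of the DNA sensing genes runs from 535 to 565 CPM, and that of the neutrophil markers from 736 to 2262 CPM.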

How the data were processed

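RNA was isolated from sorted LSK cells (7 samples, grouped by the genotype in the labels). The authors deposited raw, unnormalized counts per gene symbol. The submitters' processing notes name HISAT2 2.0.5, featureCounts 1.5.2, FastQC 0.11.7 and mm10. The labels and the methods name different library kits, of which 1 is stranded, so the use of strand is open, and the annotation and the treatment of shared reads are not given in the sources used here. Counts were tested with edgeR 4.0.16 in R 4.3.3 (quasi-likelihood, robust, TMM, filterByExpr, 13340 genes, threshold 0.05), checked on simulated data. Intervals are 95% from the fit's degrees of freedom. Exact permutation tests used all 35 assignments of the 7 samples. Positions and lengths came from GENCODE M21 by symbol. The labels name no batch and do not say whether each sample is 1 mouse, so p-values cover only the spread between these samples, which may in part be technical. Alternatives were scaling, filter, DESeq2 1.42.0, limma-voom 3.58.1 and leaving out each sample.

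The DNA sensing genes and the lists were chosen with earlier results of these data known. Named genes were the 9, Ddx41, genes overlapping them, and from each pathway list any gene with an adjusted p under 0.05, otherwise the 2 with the smallest p. Patterns were compared by the root mean square difference of log2 CPM (prior count 2). Aim2, Mnda, Dnase1, Ifnb1, Ifna4 and single markers were named outside this rule. Of the genes this rule names, 1 is not reported here.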

Additional observations from a re-analysis of the deposited data

Results flagged for a closer look

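In the 4 Ddx41+/+ samples, the summed level of the plasmacytoid dendritic cell markers was 399 CPM in replicate 4, while the nearest of the others was at 430 CPM. This gap was 0.924 of the group's range, above Dixon's critical value for 4 samples. It was 1 of 26 values checked in this way, where chance gives about 1.3, and the Ddx41+/- samples were too few to be checked. Most of that sum came from Irf8 (331 ± 7.71 CPM, SD, n = 4) and Tcf4 (87.9 ± 9.76 CPM), which progenitors also express, while Siglech, a defining marker, had 14 to 47 counts per library.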

How the results depend on the processing

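Over 14 other fits (scaling, filter, test or 1 sample fewer), 0 of the 9 DNA sensing genes had an adjusted p under 0.05, with the smallest at 0.32, and of 126 log2 fold changes 125 kept their sign, the exception being Tmem173 without Ddx41+/- replicate 8 (0.0015). The count with an unadjusted p under 0.05 went from 1 to 0 under upper-quartile scaling, library totals, DESeq2, limma-voom and the non-robust fit, and was 0 to 1 when 1 sample was left out (0 without Ddx41+/+ replicate 3 or 4, or Ddx41+/- replicate 7 or 8). The count without overlap was 0 to 3 when 1 sample was left out: Tbk1, Ikbke and Trex1 without Ddx41+/- replicate 6 (3 of 9, and 23.0% of all genes tested), Ifi204 without replicate 7 (1 of 9, and 15.9%) and Mb21d1 without replicate 8 (1 of 9, and 16.7%). With 1 sample left out, log2 fold changes ran from -0.12 to -0.04 for Mb21d1, -0.11 to 0.0015 for Tmem173, 0.01 to 0.09 for Tbk1, 0.11 to 0.23 for Ikbke, -0.18 to -0.05 for Irf3, -0.19 to -0.02 for Trex1, -0.07 to -0.0047 for Samhd1, -0.35 to -0.14 for Ifi204 and 0.08 to 0.28 for Enpp1. Over all genes, 29 had an adjusted p under 0.05, against 15 with library totals, 91 with no filter, 164 with DESeq2, 14 with the non-robust fit and 7 to 41 when 1 sample was left out (7 without Ddx41+/+ replicate 2, 16 without replicate 3, 14 without Ddx41+/- replicate 7, 9 without replicate 8). The causes were not tested. The difference of the Ikbke to Tbk1 ratio stayed positive in all 9 alternatives, with exact permutation p-values from 0.133 to 0.30, and Ddx41 kept an adjusted p under 0.05 in all 14. No paired analysis was possible because the genotypes share no replicate number. The intervals were widest for Ifi204 (109 to 149 counts per library) and Enpp1 (287 to 462), and the parts of depth and of the spread between samples in them were not separated.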
